A study of Schmidtea mediterranea with 2 samples.

Results

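The 100 genes described here were the most spatially clumped genes of 1 Slide-seqV2 dataset of the planarian flatworm Schmidtea mediterranea. They were chosen by a score measured in the same data. A bead is a barcoded spot of the puck, the flat array onto which a frozen section is placed, and it can hold RNA of several cells or of part of one. For each gene the score was the Pearson correlation, over beads, of the gene's share of the bead's unique molecular identifiers (UMIs, each standing for 1 captured RNA molecule) with its share of the pooled UMIs of the 10 nearest other beads. The score was computed on 8789 beads with at least 50 UMIs and for genes with at least 300 UMIs on them. Of the 1069 genes that reached this minimum, 33 are in the study's table of planarian intestine and stem cell marker genes and were left out. The 100 genes with the highest scores were taken from the remaining 1036. The sample was worm fragments on 1 puck, with no treatment, genotype or age given in the labels. The library was sequenced in 2 runs, and the main values come from the Syrah-processed counts of both runs, where Syrah is a pipeline that corrects barcode errors in Read 1. There were no replicates, so every value below is a description of 1 puck, no p-values are given, and intervals are 95% exact conditional Poisson intervals that cover counting error only.

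Planarians are flatworms that regenerate from small pieces of tissue. Their stem cells, called neoblasts, express piwi-1 and are the dividing cells of the animal, and they lie in the tissue around the organs. The intestine is a branched blind sac that runs through the body and takes up food, and mat2a was used by the study as its marker. The epidermis covers the outside of the body, and the pharynx and gland cells occupy restricted regions. A gene used by 1 organ or by a rare local cell type can therefore give patches on a section, and a gene found in nearly all cells can still vary in its share from place to place. The deposited tables name genes only by SMED30 identifiers and do not pair these with gene names apart from the study's markers, so no function is given for any of the 100 genes, and no sequence of them was at hand.

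The chosen genes had scores between 0.205 and 0.785, with a median of 0.320. Over all 1036 genes the median was 0.0201, and 757 of them scored below 0.05. Among the chosen genes, 16 scored above 0.5 and 46 below 0.3, and no gap set them apart from the other genes. Just inside the threshold were SMED30033185 at 0.208 and SMED30030996 at 0.205, and just outside it were SMED30020317 at 0.202 and SMED30026663 at 0.195. Of the 33 marker genes left out, 5 scored at or above the lowest chosen gene. Their highest score was 0.480, for a stem cell marker, SMED30029763. The canonical markers scored low, with 0.0533 for mat2a and 0.0962 for piwi-1.

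**Figure D1:**
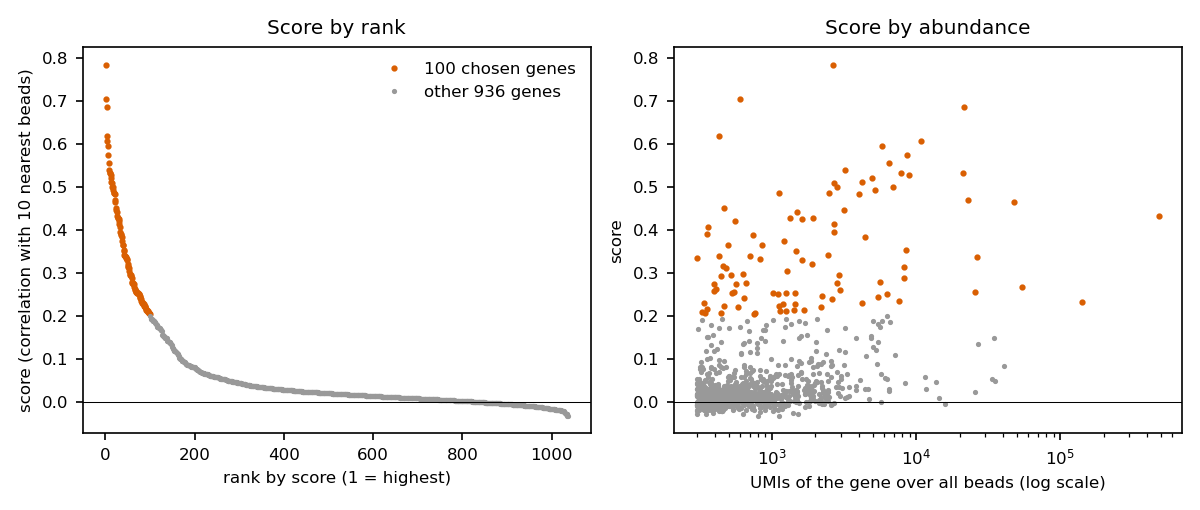
The left panel plots the score of each gene against its rank, and the right panel plots it against the gene's UMIs on a log scale, with the 100 chosen genes in orange and the other genes in grey. The scores run without a gap through the threshold, from 0.205 inside to 0.202 outside.

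The genes ranged from rare to the most abundant of the table. They had 301 to 482930 UMIs, with a median of 1482.5, against a median of 606 over all 1036 genes. Together they held 33.6% of all 3166333 UMIs on these beads. The gene SMED30032887 alone held 482930 UMIs, and without it the other chosen genes held 18.3%. Score and abundance were related as a description, with a Spearman correlation of 0.366 over the 100 genes and 0.362 over all 1036 genes, and 35 of the 100 had fewer than 1000 UMIs. The median gene had 44.0% of its UMIs on the 88 beads richest in it, which are 1% of the beads, and the median over all 1036 genes was 30.8%. Some abundant chosen genes were spread more widely. SMED30030799 was on 57.3% of beads and SMED30010350 on 88.2%, with 10.3% and 8.22% of their UMIs on the richest 88 beads.

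The highest score belonged to SMED30034819, with 2645 UMIs on 868 beads. The richest 82 beads held 50% of these UMIs, and on the bead richest in it the gene made up 13.7% of all UMIs. SMED30023017 (score 0.704) and SMED30032042 (0.618) followed the same pattern with 599 and 431 UMIs. The correlation of their smoothed shares, each pooled over a bead and its 10 nearest beads, was 0.940, and that of SMED30034819 with SMED30032042 was 0.912. These correlations are over 8789 beads that share neighbours, total UMIs and 1 library. SMED30028565, at rank 3, was more abundant and more widespread, with 21570 UMIs on 3175 beads, and the richest 177 beads held 50% of them.

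Tissue fragments were found from bead positions and total UMIs alone. There were 16 of them, with 51 to 720 beads, and they held 5815 of the 8789 beads. Beads in fragments had a median of 290 UMIs. A further 2686 beads lay outside the tissue pieces, where the summed UMIs of the surrounding barcodes were low. They had a median of 97 UMIs and held 12.0% of all UMIs, and the remaining 288 beads were in smaller pieces. The chosen genes together made up 34.0% of the UMIs on these outside beads and 33.5% of the UMIs in fragments. These pooled values rest largely on SMED30032887, which held 482930 of the 1063789 UMIs of the chosen genes. Single genes were less even, with ratios of their shares on outside beads over fragments between 0.209 and 7.67. The median ratio was 0.691 over the 100 genes and 0.936 over all 1036 genes.

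After the mean share of each fragment was subtracted, the score within fragments had a median of 0.356 over the 100 genes and 0.0173 over all 1036 genes. This score uses the same shares and nearly the same neighbours as the one that chose the genes, so its excess over all genes follows from the choice and is given as a description. It was at least 0.1 for 97 of the 100 and for 187 of all 1036 genes. It was at least 0.2 for 96 of the 100, and since no count over all 1036 genes is given at this limit, nothing is read from the 96. Of the 4 genes below that, named here after their values were seen, SMED30010932 had -0.02, SMED30032663 had 0.0599, SMED30027385 had 0.0928 and SMED30002262 had 0.189. SMED30010932 also had the highest ratio of outside beads over fragments of the 100 genes, at 7.67, and SMED30032663 made up 54.5% of the UMIs of 1 bead. The part of such beads in the scores of the 4 genes was not tested.

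The score inside single fragments is given where the gene had at least 30 UMIs in the fragment. SMED30034819 had that many in 9 fragments, and its score there was between 0.0183 and 0.856, with a median of 0.621. SMED30028565 reached it in 13 fragments, with scores between -0.23 and 0.739 and a median of 0.642, and 10 of them were at 0.2 or more. SMED30030799 reached it in 15 fragments, with scores between 0.04 and 0.619 and a median of 0.536, and 13 of them were at 0.2 or more. SMED30018686 was clumped in each of its 7 fragments, at 0.443 to 0.622, and SMED30012932 in each of its 9, at 0.314 to 0.566. Low or negative values occurred in some fragments for SMED30034819, SMED30028565 and SMED30030799. Other chosen genes, picked after their values were seen, were less uniform, with 0.2 or more in 8 of 16 fragments for SMED30027845 and in 5 of 9 for SMED30025388.

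Fragments differed strongly in single genes. In 40 of the 100 genes, 1 fragment held at least 25% of the gene's UMIs in fragments, against 5.21% of all 1036 genes. SMED30015515 had the largest part of its fragment UMIs in 1 fragment, 61.3% in fragment 10, where its share was 8.31 times that over all fragments. In the small fragment 14, SMED30030540 and SMED30007522 were at 19.4 and 18.6 times their shares over all fragments. SMED30001879 had 56.4% in fragment 10, and SMED30007704 and SMED30010350 were among the lowest, with 12.2% and 11.9% in their top fragments. The share of SMED30018686 was between 0% and 0.975% of the UMIs of a fragment, with a median of 0.0534%, and it was highest in fragment 10. The share of SMED30030799 was between 0.168% and 1.16%, with a median of 0.625%, and 1 fragment lay under 50% of the mean. The fragments are pieces on 1 puck and are not labelled as separate animals.

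Likeness between beads fell with distance. For beads less than 25 coordinate units apart, the correlation of shares over bead pairs had a median of 0.267 over the 100 genes and 0.00533 over the other 936 genes. At 50 to 100 units it was 0.0736 for the chosen genes and 0.00309 for the others. At 200 to 400 units it was 0.0147 and at 400 to 800 units -0.0005 for the chosen genes. The shorter distances lie within the reach of the 10 neighbours that the score used, so there the difference between the chosen and the other genes restates the choice. The unit of the coordinates is not stated in the sources used here. The median distance from a bead to its nearest neighbour was 16.7 units, and that to its 10th neighbour was 51.7 units.

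**Figure D2:**
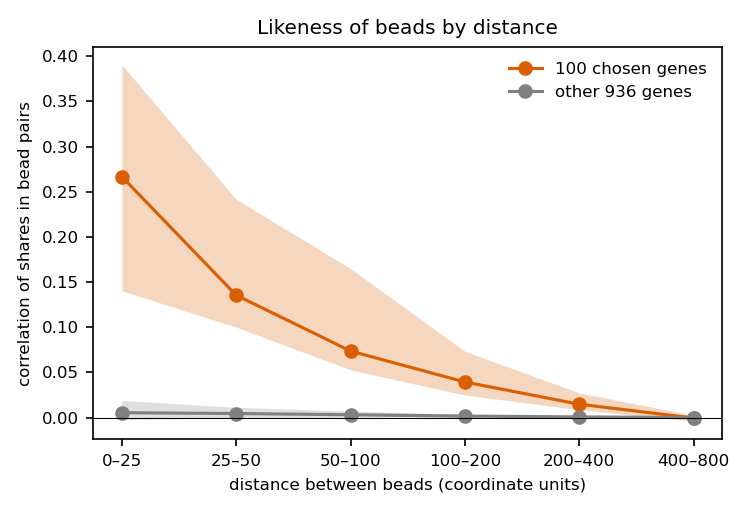
The horizontal axis gives the distance between 2 beads in coordinate units, in unequal steps, and the vertical axis the correlation of a gene's shares over the bead pairs at that distance. Lines are medians over genes and bands the range from the 25th to the 75th percentile of the genes. The median of the 100 chosen genes falls to 0.0736 at 50 to 100 units, and the median of the other genes is 0.00533 or less at every distance.

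Grouping the genes by the correlation of their smoothed shares gave 6 groups (Ward linkage). The median correlation between all 4950 pairs of genes was -0.0069, and 335 pairs were above 0.5, so the genes did not share 1 pattern. Of these, 3 groups were tight. The 19 genes led by SMED30028565 had a median pairwise correlation of 0.768, the 7 genes led by SMED30018686 had 0.807, and the 10 genes led by SMED30010228 had 0.759. The 16 genes led by SMED30030799 had 0.316. The 24 genes led by SMED30034819 and the 24 led by SMED30012932 were loose, with 0.0767 and 0.118, and hold several smaller patterns. Within the group led by SMED30034819, SMED30030540 and SMED30007522 were correlated at 0.90, SMED30028358 and SMED30005838 at 0.85, and SMED30008073 and SMED30011012 at 0.72. Within the group led by SMED30012932, SMED30002225 and SMED30022886 were correlated at 0.94, and SMED30027845 and SMED30027385 at 0.82. These pairs were picked after their values were seen. The groups were made from the same shares as the score and are used here only to order the description.

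**Figure D3:**
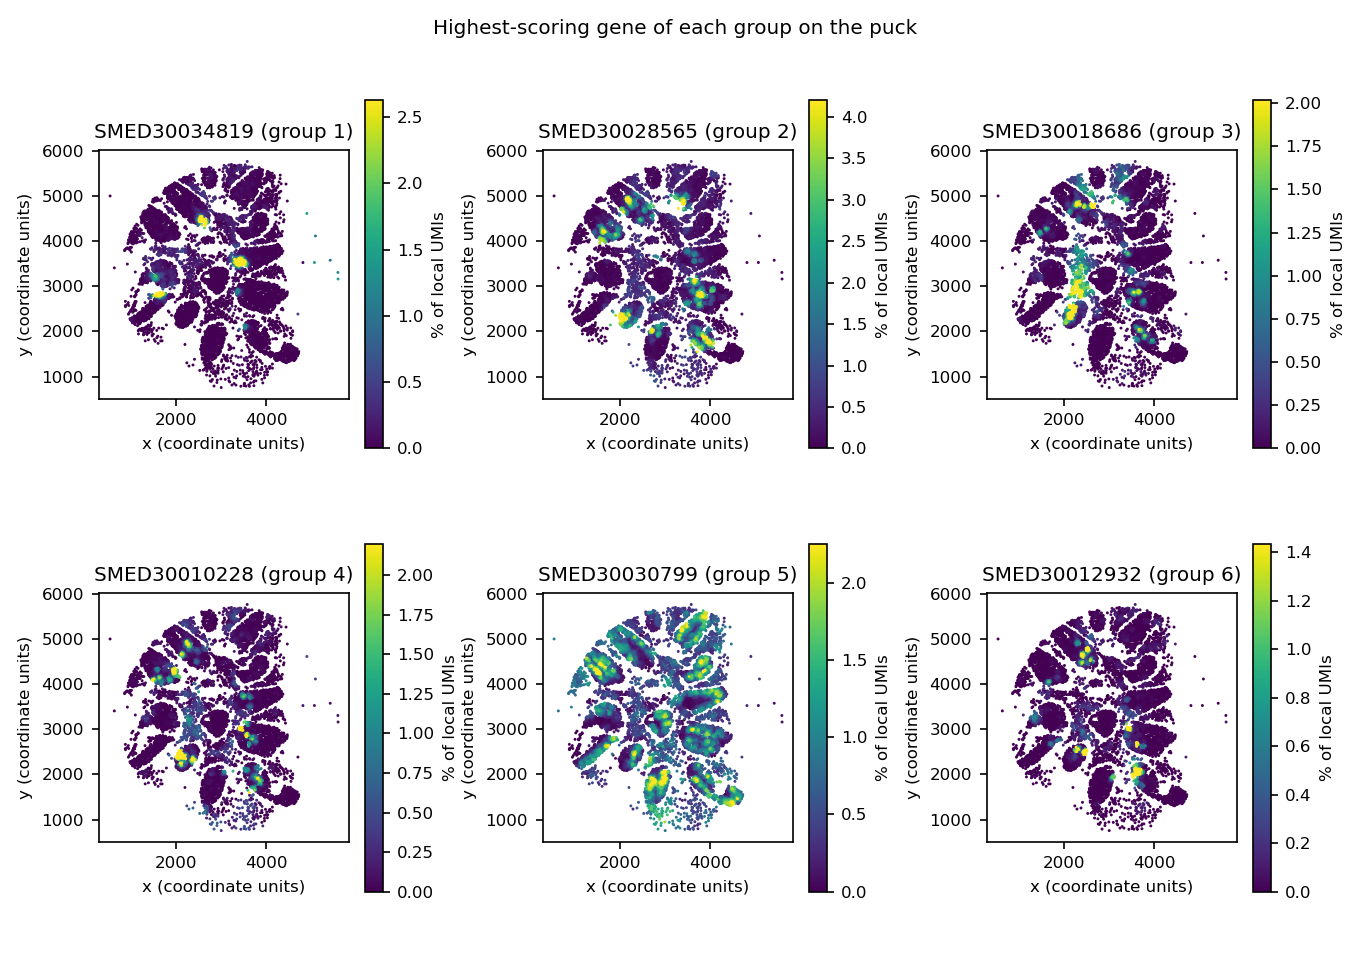
Each panel shows the beads of the puck by their x and y position in coordinate units, coloured by the smoothed share of UMIs, in percent, of the highest-scoring gene of 1 group, with colours capped at the 99th percentile. SMED30034819 is high in a few small spots, SMED30028565, SMED30010228 and SMED30012932 in patches of some fragments, SMED30018686 in fragments and on beads between them, and SMED30030799 in most fragments.

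Intestine-rich beads were the 25% of beads with the highest smoothed share of the 14 intestine markers, and intestine-poor beads were the 25% with the lowest. The markers made up 3.19% and 0.391% of UMIs in these 2 sets, whose beads had median depths of 259 and 190 UMIs. Of the 100 genes, 15 had a share at least 1.5 times as high in intestine-rich beads, against 30% of all 1036 genes, and 77 had a share at most 1/1.5 as high, against 27.6%. The median ratio of intestine-rich over intestine-poor beads was 0.234 for the 100 genes and 0.954 for all 1036. A gene in patches can differ between any 2 regions of a section, and the ratios come from the same counts as the score.

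All 15 of these genes belonged to the group led by SMED30030799. SMED30030799 made up 1.29% of UMIs in intestine-rich beads and 0.144% in intestine-poor beads, a ratio of 8.93 (8.40 to 9.50). SMED30027223 had the highest ratio, 11.2 (8.75 to 14.5), and SMED30028912 had 11.0 (9.51 to 12.9). The 16th gene of the group, SMED30010350, had a ratio of 1.36 (1.33 to 1.39). The pooled share of the group was correlated at 0.856 with that of the intestine markers over the beads. Taken inside each fragment, with both bead sets chosen in that fragment, its pooled ratio was above 1 in 15 of 16 fragments, with a median of 3.11 and a range of 0.917 to 5.50.

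Low ratios were spread over the other groups. SMED30023017 had the lowest ratio, with 0.00102% of UMIs in intestine-rich beads and 0.0604% in intestine-poor beads, a ratio of 0.0169 (0.00767 to 0.0323). SMED30032042 had 0.0295 (0.0146 to 0.0535). The groups led by SMED30028565, SMED30018686 and SMED30010228 had ratios of at most 0.292, 0.294 and 0.151 in every gene. Inside single fragments their pooled ratios were not all below 1. Those led by SMED30028565 were above 1 in 6 of 16 fragments, with a range of 0.0899 to 5.56 and a median of 0.376. Those led by SMED30018686 were above 1 in 4 of the 15 fragments that gave a ratio, with a range of 0.106 to 11.4 and a median of 0.272. Those led by SMED30010228 were above 1 in 6 of 16 fragments, with a range of 0 to 3.15 and a median of 0.204. The fragments above 1 held few UMIs of these groups, 54 to 436 in the first, 13 to 63 in the second and 12 to 245 in the third. The loose groups were mixed. In the group led by SMED30034819, 21 of 24 genes were at 1/1.5 or lower. The median ratio over its genes was 0.271 and the pooled ratio was 0.890, with SMED30032887 holding 482930 of its 666357 UMIs. In the group led by SMED30012932, 20 of 24 genes were at 1/1.5 or lower. The median ratio over its genes was 0.235 and the pooled ratio was 0.798, with SMED30027845 holding 26320 of its 69024 UMIs. SMED30027845 had a ratio of 1.23, with 1.09% of UMIs in intestine-rich beads and 0.890% in intestine-poor beads.

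**Figure D4:**
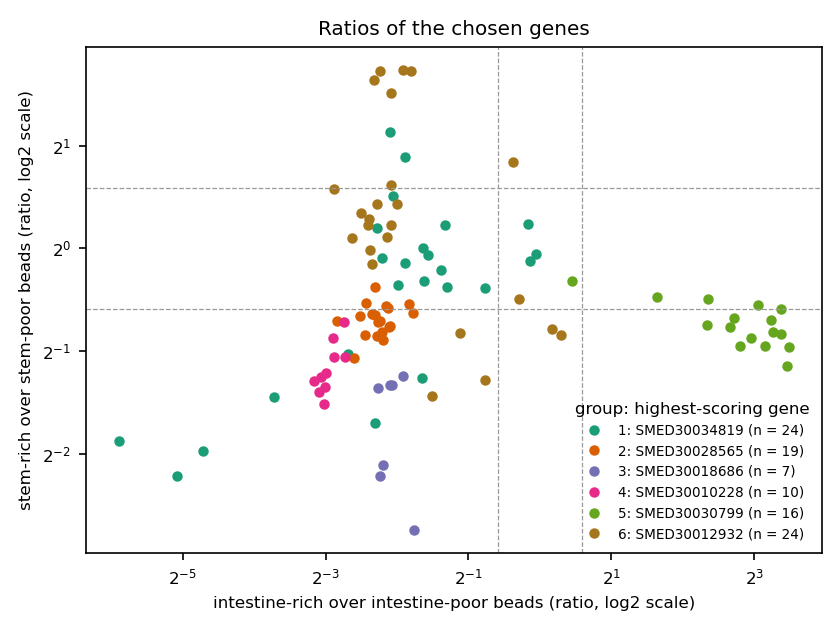
Each point is 1 of the 100 chosen genes, with its ratio of shares in intestine-rich over intestine-poor beads on the horizontal axis and in stem-rich over stem-poor beads on the vertical axis, both on a log2 scale, coloured by group, with dashed lines at 1.5 and 1/1.5. A gap separates the 15 genes at 3.13 or more on the horizontal axis from all others, and 9 genes lie at 1.5 or more on the vertical axis.

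Stem-rich and stem-poor beads were set in the same way with 21 stem cell markers, which made up 8.24% and 4.58% of UMIs in them. The markers were pooled by UMIs, so abundant ones weighed most in this order. SMED30029763, SMED30013735 and SMED30035193 held 49716, 38292 and 33748 of the 199042 UMIs of the list, and piwi-1 held 1805. Of the 100 genes, 9 had a share at least 1.5 times as high in stem-rich beads, against 14.1% of all 1036 genes, and 55 a share at most 1/1.5 as high, against 14.7%. The median ratio was 0.630 for the 100 genes and 1.01 for all 1036. Of the 9 genes, 7 were in the group led by SMED30012932. That group also had 5 of its 24 genes at 1/1.5 or lower. SMED30027845 held 26320 of the 69024 UMIs of the group and so weighed most in its pooled values. The group's median ratio over genes was 1.20, and its pooled ratio was 0.730. Inside single fragments its pooled ratio was below 1 in 13 of 16, with a median of 0.827 and a range of 0.432 to 3.05. SMED30012932 made up 0.0949% of UMIs in stem-rich beads and 0.0285% in stem-poor beads, a ratio of 3.33 (2.85 to 3.91), and SMED30012591 had 3.31 (2.70 to 4.08). The smoothed shares of these 2 genes were correlated at 0.956. The other 2 of the 9 genes were SMED30030540, at 2.20 (1.92 to 2.51), and SMED30007522, at 1.86 (1.60 to 2.16). Their smoothed shares were correlated at 0.0684 and 0.0649 with that of the stem cell markers. The lowest ratios were 0.149 (0.0960 to 0.224) for SMED30015515 and 0.215 (0.159 to 0.288) for SMED30032042. Ordered by piwi-1 alone in place of the list, 36 of the 100 genes reached 1.5, against 9 by the list. The 14.1% of all 1036 genes belongs to the ordering by the list. No such share is given for the ordering by piwi-1, so nothing is read from the 36.

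Dense and sparse tissue were the beads at or above the 75th and at or below the 25th percentile of the share of their 50 nearest barcodes that held at least 10 UMIs. Because many beads tie in this share, these were 2204 and 2689 beads, with median depths of 279 and 124 UMIs. By the same share, with a limit of 25%, 7046 of the 8789 beads lay over tissue. All beads below that limit fell in the sparse set, so sparse tissue here includes beads that were not over tissue. In all, 39 of the 100 genes had a share at least 1.5 times as high in dense tissue, against 7.05% of all 1036 genes, and 11 a share at most 1/1.5 as high, against 4.25%. The group led by SMED30012932 held 21 of the 39, and all 10 genes of the group led by SMED30010228 were among them. SMED30013245 had the highest ratio, with 0.0325% of UMIs in dense tissue and 0.0074% in sparse tissue, a ratio of 4.39 (3.23 to 6.10), and SMED30035446 had 4.13 (2.70 to 6.56). The lowest were SMED30030540, at 0.278 (0.240 to 0.321), and SMED30007522, at 0.288 (0.246 to 0.336). Bead depth differed between dense and sparse tissue, and its part in these ratios was not tested.

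Within fragments, beads were also sorted into inner and outer beads, the parts of each fragment farthest from and closest to its margin, with 1943 beads each, by distance to the nearest barcode outside the tissue pieces, a comparison added after the data were seen. Inner beads had a median of 355 UMIs and outer beads 215. Among them, 17 had a share at least 1.5 times as high in inner beads, against 5.69% of all 1036 genes, and 18 a share at most 1/1.5 as high, against 5.5%. Of the 18, 15 were in the group led by SMED30034819. SMED30034819 made up 0.0302% of UMIs in inner beads and 0.150% in outer beads, a ratio of 0.201 (0.176 to 0.228), although its share was higher in dense than in sparse tissue, at 2.23 (1.98 to 2.51). SMED30030540 and SMED30007522 were low both in inner over outer beads, at 0.245 and 0.210, and in dense over sparse tissue. All 7 genes of the group led by SMED30018686 were at least 1.5 times as high in inner beads, and the median ratio of their shares on outside beads over fragments was 1.36. Inside single fragments the pooled inner ratio of this group was above 1 in 10 and below 1 in 4 of the 14 that gave a ratio. Its range was 0.0666 to 7.71, with a median of 1.78.

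The groups differed in how they were spread over fragments. Relative to its share over all fragments, the group led by SMED30018686 was at 5.73 in fragment 10 and at most 0.0255 in fragments 6, 9, 11, 12 and 13. The group led by SMED30010228 was at 3.76 in fragment 10, and the group led by SMED30028565 at 2.64. The group led by SMED30030799 kept between 0.56 and 1.35 in every fragment. The group led by SMED30034819 kept between 0.88 and 1.31, a value set mostly by SMED30032887, which held 482930 of the 666357 UMIs of that group.

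**Figure D5:**
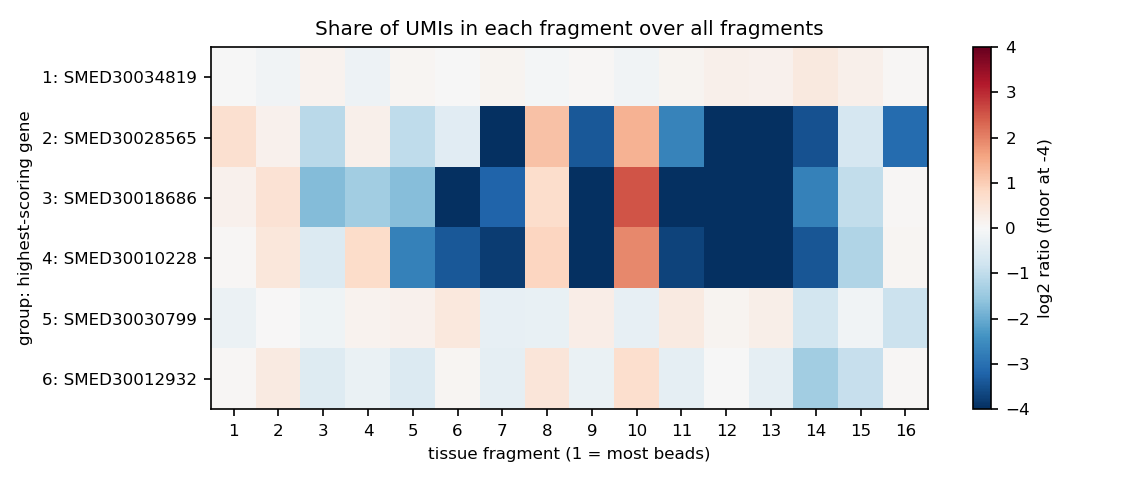
Rows are the 6 groups, named by their highest-scoring gene, and columns the 16 fragments from most to fewest beads. Colour gives the log2 ratio of the group's share of UMIs in the fragment to its share over all fragments, with very low values drawn at the bottom of the scale. Fragment 10 stands out in the groups led by SMED30028565, SMED30018686 and SMED30010228.

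The same score was computed in the other versions of the counts, which share reads with the main one and are not independent. Of the 100 genes, 91 were among the 100 highest scores in the original counts of both runs, 96 in the Syrah-processed counts of the first run and 87 in the original counts of the first run. The median score of the 100 genes was 0.320 in the Syrah-processed and 0.287 in the original counts of both runs, and 0.314 and 0.284 in those of the first run. The score was higher in the Syrah-processed counts of both runs for 89 of the 100 genes, against 60% of all 1036 genes, and since the genes were selected on the Syrah-processed score, nothing is read from this. SMED30034819 scored 0.785 in the Syrah-processed and 0.773 in the original counts of both runs. The median gene had 1.28 times as many UMIs in the Syrah-processed as in the original counts of both runs, and 7 of the 100 had fewer than 300 UMIs.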

How the data were processed

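Cryosections of worm fragments on 1 Slide-seqV2 puck gave 1 library, which was sequenced in 2 runs. The authors deposited raw counts of UMIs for every gene on every barcode, from original and Syrah-processed reads made with the Broad WARP Slide-seqV2 pipeline, and a table of barcode positions, the other deposited values, in an unstated unit. The methods name the schMedS3 genome, while the tables use SMED30 identifiers.

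Shares of UMIs, scores and ratios were computed with python 3.11.15, numpy 2.4.6, scipy 1.17.1 and pandas 2.3.3. Fragments came from an Otsu threshold (scikit-image 0.26.0) on the summed UMIs of a bead and its 50 nearest barcodes, and linking of beads within 40 units (DBSCAN, scikit-learn 1.9.0), keeping pieces of at least 50 beads. Shares are compositional, and no doublet caller was run. Beads of 1 library are not replicates, so no test was made. The steps were tested on simulated data.

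Genes were named from the 10 highest scores, those around the threshold and the 2 genes most like the rest of each group. Others came from the 2 highest and lowest for the intestine, stem and dense ratios and for the share in 1 fragment. The markers mat2a and piwi-1 were added. Not every gene so listed is named, and some others were named after their values were seen. The members and lists were chosen with earlier results of these data known. Alternatives covered neighbours, minimums, depth, versions, markers and fragments.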

Additional observations from a re-analysis of the deposited data

How the results depend on the processing

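Of the 100 genes, 82 to 97 were among the 100 highest scores under other numbers of neighbours, other bead minimums, beads over tissue, Spearman correlation, thinning, other forms of the share, and the other versions. With at least 1000 UMIs per gene it was 65, by construction, since only 65 of the 100 have that many. The median score of the 100 genes was 0.1748 with beads thinned to 50 UMIs, so part of its size depends on depth. The count of genes at 1.5 or more in intestine-rich beads was 15 under all 6 alternatives run. In stem-rich beads it was 36 when beads were ordered by piwi-1 alone. No count over all 1036 genes is given beside the 36, and the cause was not tested. In dense tissue it was 20 at a fold of 2, a stricter limit. The median score within fragments was between 0.3054 and 0.3597. Added after seeing the data were leaving out the most abundant gene from the totals (98 of 100 kept), beads in fragments only (92 kept) and fragments of at least 100 beads. No paired analysis was possible because there is 1 library and the results come from no test. With 1 puck, the spread between animals and sections is unknown, and genes near 300 UMIs have wide counting error.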
